A study of Mus musculus with 10 samples.

Results

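The genes of the respiratory chain and the ATP synthase were followed in mouse hepatocytes at 4 times of day and along the axis of the liver lobule. They were taken as every gene entry whose symbol starts with Nduf, Sdha, Sdhb, Sdhc, Sdhd, Uqcr, Cox4, Cox5, Cox6, Cox7, Cox8, Atp5, mt-Nd, mt-Co, mt-Cyt or mt-Atp, which gave 107 of the 14812 entries in the count tables. Of these, 13 lie in mitochondrial DNA and 94 in the nucleus. The nuclear genes comprise 36 subunits of complex I, 4 of complex II, 8 of complex III, 18 of complex IV, 15 of complex V (the ATP synthase), 11 assembly factors that share the prefixes, and Atp5s and Atp5sl, which are not subunits of a complex. Levels are given in CPM, UMIs scaled to a common library total, and a filter on a mean level of 3 CPM or more left 102 of them for testing, 89 of these nuclear. The 5 that did not pass are tissue-restricted isoforms or paralogues: Ndufa4l2 had 43 unique molecular identifiers (UMIs) over all libraries, Cox6b2 had 36, Cox6a2 had 3, and Cox4i2 and Cox8b had none.

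Complexes I to IV pass electrons from NADH and succinate to oxygen and, except for complex II, pump protons across the inner mitochondrial membrane, and the ATP synthase uses the proton gradient to make ATP. Complexes I, III, IV and V mix core subunits encoded in mitochondrial DNA with subunits encoded in the nucleus and imported, while complex II is wholly nuclear. In the liver lobule, blood flows from the oxygen-rich periportal side to the oxygen-poor pericentral side, and oxidative metabolism is known to be stronger in periportal hepatocytes.

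The data are single-cell RNA profiles of hepatocytes from C57BL/6 male mice, 3 months of age, fed chow ad libitum and anaesthetised with ketamine and xylazine. The livers were perfused with collagenase, hepatocytes were purified on Percoll, and 3′ UMI libraries were built with the version 2 kit of 10x Genomics. Zeitgeber time (ZT) is the time since lights on: ZT0 and ZT12 had 3 libraries each and ZT6 and ZT18 had 2, each named here by its time and letter (ZT0A). All groups share strain, sex, age, diet and anaesthesia, and the number of animals behind a library is not stated in the labels, so the p-values measure the spread between libraries, which may be technical.

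The 10 libraries held 18378 cells, 710 to 2860 per library, with 1454623 UMIs in ZT12A, the smallest, and 7144803 in ZT12B, the largest. The 6 hepatocyte markers summed to 30365 to 61533 CPM, with the lowest sum in ZT12A. The sums were 2.75 to 14.5 CPM for 5 endothelial markers and 0 to 8.55 CPM for 5 Kupffer cell markers. Clec4f, Csf1r, Clec4g and Ptprb were at 0 in every library. The 4 cholangiocyte markers were uneven between libraries, from 0.773 CPM in ZT6B to 32.5 CPM in ZT0A, the highest. They summed to 17.4 CPM in ZT0B, 17.7 in ZT0C and 17.3 in ZT18A. Erythroid markers summed to 360.5 CPM in ZT18B against 72.2 to 108 CPM in the other 9. In those 9 the sum was mostly Alas2, at 71.5 to 107 CPM, which was lowest in ZT18B at 67.4 CPM. The globin gene Hbb-bs read 142 CPM in ZT18B against 0.338 to 5.66 CPM in the other 9. Hba-a1, Hba-a2 and Hbb-bt were also highest in ZT18B, at 61.2, 60.4 and 29.6 CPM. The cells in every library lay within nearly the same bounds of mitochondrial share, from a lowest cell of 8.70 to 9.06% to a highest of 33.6 to 34.4%, so levels of mitochondrial transcripts are seen only inside that window. The sample index (a plate position named in the labels) was in column 3 for ZT0A and ZT12A, column 5 for ZT0C and ZT12C, column 7 for ZT0B, ZT12B and both ZT6 libraries, and column 4 for both ZT18 libraries.

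A read from bases shared by 2 genes on the same strand cannot be assigned to one of them by position alone. The first sequences shown are those of 2 mitochondrial genes that overlap the next gene on the same strand. They are the coding sequences of mt-Nd4l, a core membrane subunit of complex I, at chrM:9877-10173, and of mt-Atp8, a small membrane subunit of the ATP synthase, at chrM:7766-7969, both on the plus strand of GRCm38. Capitals mark the 7 bases of mt-Nd4l shared with mt-Nd4 and the 43 bases of mt-Atp8 shared with mt-Atp6. The gene mt-Atp6, not shown, also shares the base at chrM:8607 with mt-Co3.
mt-Nd4l: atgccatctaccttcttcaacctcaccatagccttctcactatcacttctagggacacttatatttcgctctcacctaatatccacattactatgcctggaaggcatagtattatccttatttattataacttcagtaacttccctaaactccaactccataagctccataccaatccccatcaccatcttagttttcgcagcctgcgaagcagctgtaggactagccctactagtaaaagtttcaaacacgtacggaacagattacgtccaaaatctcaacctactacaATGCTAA
mt-Atp8: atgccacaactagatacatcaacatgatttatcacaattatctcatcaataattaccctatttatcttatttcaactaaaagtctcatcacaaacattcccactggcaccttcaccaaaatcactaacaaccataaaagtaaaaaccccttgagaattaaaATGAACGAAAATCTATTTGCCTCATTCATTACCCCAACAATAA
The remaining sequences are nuclear promoters, from 250 bases before to 50 after the gene start, from RefSeq on GRCm38.p6, shown for 3 genes whose periportal level is described further on. Sdhb encodes the iron-sulphur subunit of complex II (chr4:140961021-140961320, plus strand), Sdhd a membrane anchor of complex II (chr9:50603800-50604099, minus strand) and Uqcrc1 a core protein of complex III (chr9:108936398-108936697, plus strand). Capitals mark CCGGAAG (ETS family) or CAAGGTCA (oestrogen-related receptors) on either strand in Sdhb and Sdhd, and GCGCATGCG (NRF1) in Uqcrc1, where a match on each strand overlaps.
Sdhb: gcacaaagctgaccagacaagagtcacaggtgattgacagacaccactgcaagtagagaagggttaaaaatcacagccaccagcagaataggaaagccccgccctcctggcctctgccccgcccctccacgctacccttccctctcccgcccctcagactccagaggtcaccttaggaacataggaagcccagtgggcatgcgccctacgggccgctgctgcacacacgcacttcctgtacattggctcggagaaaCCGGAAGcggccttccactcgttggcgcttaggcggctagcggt
Sdhd: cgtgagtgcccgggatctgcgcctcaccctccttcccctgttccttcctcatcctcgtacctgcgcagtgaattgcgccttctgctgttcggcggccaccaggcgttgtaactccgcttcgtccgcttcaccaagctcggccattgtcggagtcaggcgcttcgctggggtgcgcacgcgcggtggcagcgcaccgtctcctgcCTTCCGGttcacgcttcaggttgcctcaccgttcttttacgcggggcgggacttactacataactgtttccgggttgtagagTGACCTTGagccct
Uqcrc1: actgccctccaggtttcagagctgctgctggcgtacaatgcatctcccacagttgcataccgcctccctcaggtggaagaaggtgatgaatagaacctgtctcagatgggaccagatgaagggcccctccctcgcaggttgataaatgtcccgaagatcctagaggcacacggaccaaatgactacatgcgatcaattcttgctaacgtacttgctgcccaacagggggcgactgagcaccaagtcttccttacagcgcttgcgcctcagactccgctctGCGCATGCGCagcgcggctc
RefSeq promoters were matched for 79 of the 94 nuclear genes, and both strands were searched. GCGCATGCG was found in 10 of them (12.7%, against 1.95% of all 27025 genes with a promoter) and CCGGAAG in 20 (25.3% against 9.93%). AAGATGGCG (YY1) was found in 8 (10.1% against 1.64%) and CAAGGTCA in 4 (5.06% against 1.76%). At least 1 of these letter strings was present in 35 of 79 (44.3%), against 14.3% of all 27025 genes. That background was not limited to the 8908 genes tested in these libraries, and no comparison with expressed genes was made. Some members had more than 1 promoter.

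Mitochondrially encoded transcripts took several times the share of UMIs of the nuclear ones in every library. The 13 mitochondrial genes held 16.5, 18.1 and 16.7% of UMIs at ZT0 (libraries A, B and C), 15.9 and 16.0% at ZT6, 24.3, 17.6 and 12.9% at ZT12, and 21.5 and 19.3% at ZT18. The highest and the lowest library were both from ZT12, whose mean of 18.3% ± 5.73 (SD, n = 3) spanned all other groups. Both ZT18 libraries lay above both ZT6 libraries, with means of 20.4% ± 1.55 and 15.9% ± 0.0434 (SD, n = 2 each), and with 2 against 2 libraries no exact test of this share can reach 0.05.

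The nuclear members took a smaller share, and 1 library stood apart. They held 4.80, 3.19 and 2.80% of UMIs at ZT0, 3.37 and 3.66% at ZT6, 2.88, 3.21 and 2.76% at ZT12, and 2.95 and 3.14% at ZT18. ZT0A was the highest, and the other 9 libraries lay within 1 percentage point of each other. UMIs of mitochondrial members per UMI of nuclear members ranged from 3.43 in ZT0A to 8.44 in ZT12A. The plot of both shares by library shows these spreads.

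**Figure D1:**
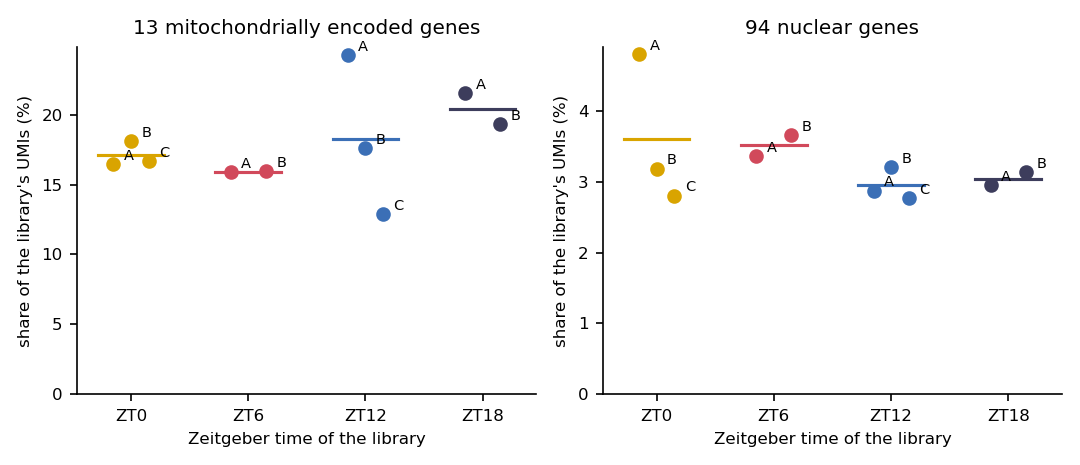
Share of UMIs (percent) held by the 13 mitochondrially encoded and the 94 nuclear genes in each of the 10 libraries, with group means. The mitochondrial share runs from 12.9% in ZT12C to 24.3% in ZT12A, and the nuclear share is highest in ZT0A at 4.80%.

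Ranks and medians in this paragraph use the TMM scale of the tests, with library factors of 0.888 in ZT0A and 1.14 in ZT12C. Relative to CPM, that scale raises ZT0A and lowers ZT12C. On it, ZT0A carried the highest value of the 10 libraries for 68 of the 89 tested nuclear genes, against 12.1% of all 8908 genes tested. It did so for 0 of the 13 mitochondrial genes. The median nuclear gene was 0.73 above its own mean over libraries in ZT0A on the log2 scale. Ndufa4, now counted as a complex IV subunit, stood at 2362 CPM in ZT0A against 586 to 1068 CPM in the other 9. Uqcrb, a small complex III subunit chosen after its values were seen, stood at 1032 CPM against 222 to 449 CPM. Cox6b1, a complex IV subunit of the intermembrane space, stood at 1069 CPM against 283 to 706 CPM. ZT12C was the lowest library for 42 nuclear and 8 mitochondrial genes, against 13.3% of all genes. ZT12A, which was often at an extreme for any gene, was the lowest for 23 nuclear genes, against 16.6% of all genes, and the highest for 5 mitochondrial ones, against 18.6%.

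**Figure D2:**
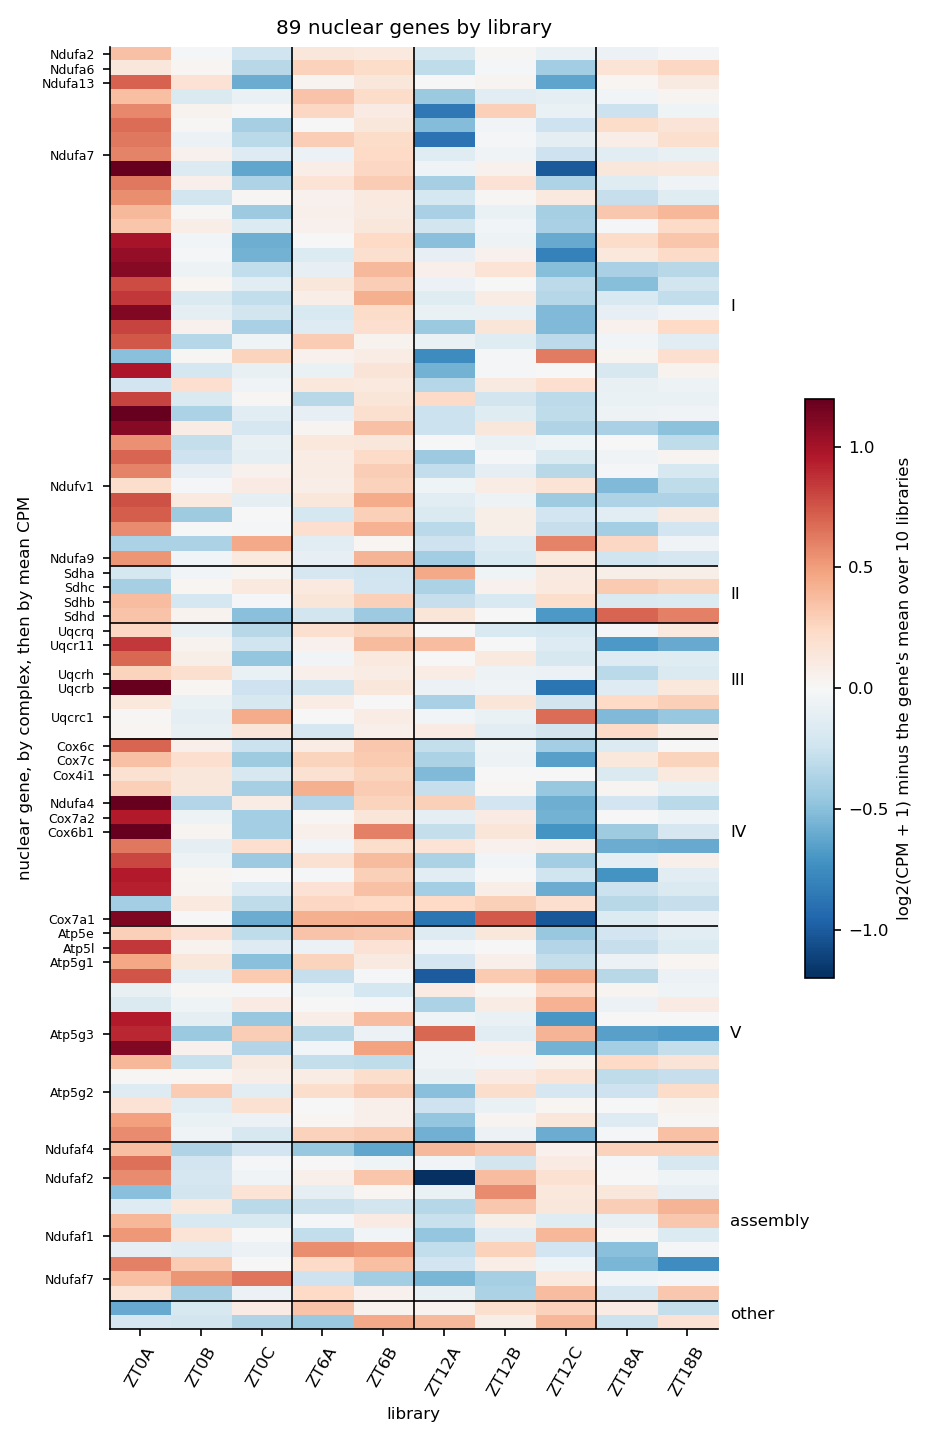
Level of each of the 89 tested nuclear genes in each library, as log2(CPM + 1) minus the gene's mean over the 10 libraries, grouped by complex, with some of the genes named in the text labelled; colours saturate at 1.2 in either direction. ZT0A is above the mean for most genes, and ZT12A and ZT12C are below it.

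Time of day moved few of these genes past the test. A 24 h rhythm was called at an adjusted p under 0.05 (edgeR's quasi-likelihood test, Benjamini-Hochberg) for 2 of 102, where 5.14% of all 8908 genes were called. At an unadjusted p under 0.05 there were 9 of 102, against 20.4% of all genes. The median amplitude (log2, mean to peak) was 0.28 over the members and 0.25 over all genes. The called genes were mt-Nd4l, with amplitude 0.73 and peak at ZT5.53 (adjusted p = 0.0189), and Ndufaf7, a methyltransferase needed to assemble complex I, with amplitude 0.59 and peak at ZT22.6 (adjusted p = 0.0473). With 1 library left out at a time, the mt-Nd4l amplitude stayed close: 0.68 without ZT6B, 0.78 without ZT18A and 0.68 without ZT18B. The mt-Nd4l call ended in these fits and held when any other single library was left out. The Ndufaf7 call ended in 16 of 20 alternative settings.

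Between ZT0 and ZT12, Ndufaf7 was the 1 gene of 102 called (edgeR, Benjamini-Hochberg), against 3.44% of all genes, and 13 of 102 passed an unadjusted p under 0.05, against 15.5% of all genes. Its level was 7.33, 8.32 and 9.12 CPM at ZT0, 3.44, 3.92 and 6.02 at ZT12, 4.47 and 3.86 at ZT6, and 5.34 and 5.39 at ZT18. The ZT0 libraries lay above all others. The ZT12 minus ZT0 difference was -1.04 ± 0.26 (log2, SE; adjusted p = 0.0389), from 266 UMIs in all, and the call was lost in 16 of 19 alternative settings.

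The nuclear genes lay lower at ZT12 than at ZT0 as a set, with a median of -0.43 against -0.00 for all genes (log2 difference) and 80 of 89 below 0. This held for 35 of 36 tested complex I subunits, 8 of 8 of complex III, 12 of 13 of complex IV and 14 of 15 of complex V. None of these passed the test. The shift was less uniform outside these complexes: most genes not below 0 were among complex II, the assembly factors, Atp5s and Atp5sl. Cox6c of complex IV, for example, read 2243, 1437 and 1152 CPM at ZT0 and 1128, 1333 and 1041 CPM at ZT12 (-0.63 ± 0.30, adjusted p = 0.331), so the groups overlapped. Atp5l of the ATP synthase read 1619, 924 and 810 CPM against 877, 895 and 705 CPM (-0.60 ± 0.30, adjusted p = 0.361).

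This shift was smaller without ZT0A. Leaving that library out, the nuclear median was -0.09, and scaling by library size alone gave -0.28, on a scale where the median of all genes moved to 0.13. Compared within letters, which for ZT0 and ZT12 also share an index column, ZT12 minus ZT0 had a nuclear median of -0.94 in A (84 of 89 lower), -0.03 in B (53 lower) and -0.19 in C (69 lower). The mitochondrial medians were 0.12, -0.07 and -0.38. UMI sums are relative, so more RNA of these genes and less RNA of others cannot be told apart.

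Between ZT6 and ZT18, mt-Nd4l was the 1 gene of 102 called, against 3.79% of all genes, with 10 of 102 at an unadjusted p under 0.05, against 19.6% of all genes. It read 866 and 965 CPM at ZT6, 353 and 288 at ZT18, 602, 578 and 491 at ZT0, and 660, 478 and 499 at ZT12. Both ZT6 libraries were above, and both ZT18 libraries below, all of the others. The ZT18 minus ZT6 difference was -1.45 ± 0.29 (log2, SE; edgeR adjusted p = 0.0148). Leaving out any 1 of the 4 libraries leaves 1 library at that time, assumed to vary like the other groups. The difference was then -1.57 without ZT6A (adjusted p = 0.0825), -1.31 without ZT6B (0.135), -1.58 without ZT18A (0.112) and -1.32 without ZT18B (0.184), so its size stayed close while the call was lost.

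The next gene on the strand went the other way in value. mt-Nd4 read 11242 and 11043 CPM at ZT6 and 18714 and 16749 CPM at ZT18, a difference of 0.74 ± 0.38 that did not pass (adjusted p = 0.307). Per 1000 UMIs of mt-Nd4 there were 77.0 and 87.4 of mt-Nd4l at ZT6 and 18.8 and 17.2 at ZT18, against 54.7, 45.8 and 42.7 at ZT0 and 49.1, 37.3 and 61.2 at ZT12. In this ratio too the ZT6 and ZT18 libraries bracketed the rest.

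Other mitochondrial genes lay higher at ZT18 without passing edgeR's test. Of the 13, 10 had a difference above 0, with a median of 0.33, while the nuclear median was -0.12. mt-Nd2, a core subunit of complex I, read 6440 and 6482 CPM at ZT6 and 13163 and 11712 at ZT18 (1.02 ± 0.35, edgeR adjusted p = 0.12), and DESeq2 did call it (1.03, adjusted p = 0.00417). Sdhd read 119 and 102 CPM at ZT6 and 225 and 212 at ZT18 (1.06 ± 0.35, adjusted p = 0.108), with ZT0 at 176, 143 and 97.7 and ZT12 at 153, 139 and 85.8. The median log2 CPM of 43 pseudogene entries was 5.25 and 5.43 in the ZT18 libraries against 2.77 to 3.38 in the other 8, and ZT18 has an index column of its own, so time and column cannot be told apart for these differences.

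mt-Atp8 set the C libraries apart from the others. It read 112, 123 and 313 CPM at ZT0, 133 and 143 at ZT6, 39.9, 123 and 524 at ZT12, and 120 and 96.2 at ZT18. ZT0C and ZT12C, which share an index column, were the highest at 2 different times, and ZT12A was the lowest. Per 1000 UMIs of mt-Atp6 there were 12.2 and 31.7 in ZT0C and ZT12C, 0.929 in ZT12A and 3.27 to 6.16 in the other 7. The mt-Nd2 share of mitochondrial UMIs was 6.49 and 7.16% in these C libraries, 6.11 and 6.05% at ZT18 and 3.02 to 4.40% in the other 6. The same limit on shared reads applies to mt-Atp8 and mt-Atp6. The plot of gene pairs by library shows the 3 ratios.

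**Figure D3:**
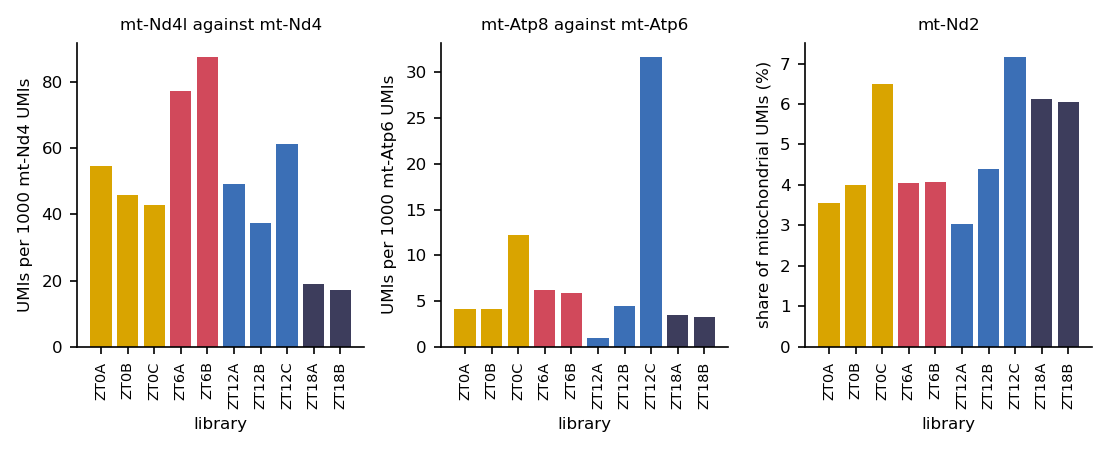
Ratios by library: UMIs of mt-Nd4l per 1000 of mt-Nd4, UMIs of mt-Atp8 per 1000 of mt-Atp6, and mt-Nd2 as a percent of mitochondrial UMIs. The first is highest at ZT6 (77.0 and 87.4) and lowest at ZT18 (18.8 and 17.2), and the second is highest in ZT0C and ZT12C.

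By position in the lobule, most mitochondrially encoded genes were higher on the periportal side. Cells of each library were ordered by 8 periportal minus 8 pericentral landmark genes, divided into 3 zones of equal cell number, and the outer zones were compared within libraries with edgeR. Of 102 genes, 33 differed at an adjusted p under 0.05 (Benjamini-Hochberg), against 24.6% of 8907 genes, and 30 were higher on the periportal side, against 11.9% of all genes, with 3 higher on the pericentral side, against 12.7%. The mitochondrial genes gave 11 of 13, all higher periportal, with a median difference of 0.40, and the nuclear genes gave 22 of 89 (19 higher, 3 lower) with a median of 0.09, where the median of all genes was -0.01. Scaled by library size alone, which moves the median of all genes to -0.11, the mitochondrial count was 10 higher and the nuclear split became 11 higher and 17 lower, so the direction of small nuclear differences rests on the scaling.

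Among mitochondrial genes, mt-Co2, a catalytic subunit of complex IV, had a lowest, median and highest level of 10528, 14148 and 19567 CPM in pericentral cells and 14268, 20400 and 23769 CPM in periportal cells over the 10 libraries. It rose by 0.57 ± 0.06 (log2, SE; adjusted p = 2.83e-10), in 10 of 10 libraries. mt-Cytb, the cytochrome of complex III, had 7792, 11738 and 19828 CPM pericentrally and 10883, 15648 and 23745 CPM periportally, a rise of 0.52 ± 0.05 (adjusted p = 1.14e-09), also in 10 of 10. The ranges of both genes overlapped between zones, since libraries differed in level, and every library was higher on its periportal side.

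The complex I gene mt-Nd6, encoded on the other strand, rose by 0.48 ± 0.08, from a median of 58.7 to 77.8 CPM. Of the complex IV core, mt-Co1 rose by 0.43 and mt-Co3 by 0.40, and mt-Atp6 of the ATP synthase rose by 0.39. Of complex I, mt-Nd4 rose by 0.41, mt-Nd3 by 0.40, mt-Nd4l by 0.31, mt-Nd5 by 0.28 and mt-Nd1 by 0.19. The 2 that did not pass were mt-Nd2 (0.08 ± 0.06, adjusted p = 0.348) and mt-Atp8 (0.16 ± 0.07, adjusted p = 0.111).

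Complex II showed unequal members. Sdhb had a lowest, median and highest level of 87.0, 127 and 164 CPM pericentrally and 145, 182 and 234 CPM periportally, and rose by 0.59 ± 0.07 (adjusted p = 9.16e-08), in 10 of 10 libraries. Sdhd rose by 0.28 ± 0.07 (adjusted p = 0.00324), also in 10 of 10. Sdha, the flavoprotein that oxidises succinate, differed by 0.08 (adjusted p = 0.375), and Sdhc, the other membrane anchor, by 0.09 (adjusted p = 0.311). The differences between these subunits were not tested.

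Of the nuclear complex I subunits, 4 of 36 rose, near the 11.9% of all genes called higher, and 1 fell, against 12.7% called lower. Ndufv1, a core subunit that carries electrons, rose by 0.28, and the accessory subunits Ndufa9 and Ndufa13 rose by 0.26 and 0.24. The accessory subunit Ndufa7 fell by 0.19 (adjusted p = 0.041), lower in 8 of 10 libraries. The calls of Ndufa7 and Ndufa9 were lost in 13 and 11 of 23 alternative settings. The 2 complex I genes with the most UMIs, Ndufa2 and Ndufa6, gave -0.16 (adjusted p = 0.0691) and -0.05 (adjusted p = 0.662). The assembly factor Ndufaf1 rose by 0.45 and Ndufaf2 fell by 0.45 ± 0.11 (adjusted p = 0.00276), the latter with pericentral and periportal medians of 29.8 and 20.1 CPM. The Ndufaf1 call was lost in 13 of 22 alternative settings.

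In complex III, Uqcrc1 rose by 0.33 (adjusted p = 0.00213) and Uqcrh by 0.26, while Uqcrq, a small subunit, fell by 0.24 ± 0.06 (adjusted p = 0.00374). Uqcrq had a lowest, median and highest level of 1375, 1969 and 2324 CPM pericentrally and 1210, 1454 and 1824 CPM periportally, and was lower periportally in 8 of 10 libraries. Uqcr11 gave 0.14 (adjusted p = 0.122). Members of 1 complex thus passed in opposite directions on this scale.

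Complex IV gave 5 of 13, all higher, against 11.9% of all genes called higher. Cox7a1, the isoform known from heart and skeletal muscle, had the largest log2 difference of the 102 genes, 1.23 ± 0.22 (adjusted p = 5.67e-05), higher in 8 of 10 libraries. It rests on 391 UMIs, with pericentral levels of 0 to 12.4 CPM and periportal levels of 1.51 to 21.7 CPM. Its more widely expressed paralogue Cox7a2 rose by 0.19 (adjusted p = 0.0487) and Cox7a2l, which takes part in supercomplexes, gave 0.13 (adjusted p = 0.151). Cox7b rose by 0.30, Cox5a by 0.29 and Cox5b by 0.27. The calls of Cox7a2 and Cox5b were lost in 11 and 9 of 23 alternative settings. The forms tested at other positions gave 0.09 for Cox4i1, 0.18 for Cox6a1, -0.00 for Cox6b1, -0.11 for Cox8a and 0.00 for Ndufa4, none of which passed, and Cox6c and Cox7c gave -0.01 and -0.09.

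In the ATP synthase 5 of 15 rose, against 11.9% of all genes called higher. Atp5a1 and Atp5b, the catalytic-head subunits, each rose by 0.28, and Atp5o, of the stalk, by 0.29. The 3 genes that encode the same mature c-ring subunit differed in value: Atp5g1 rose by 0.38 ± 0.08 (adjusted p = 0.000291) from a median of 744 to 815 CPM, Atp5g3 rose by 0.25 (adjusted p = 0.0066), and Atp5g2 gave -0.17 (adjusted p = 0.074). Atp5e and Atp5l gave -0.03 and -0.12. The plot of zone differences orders all 102 genes.

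**Figure D4:**
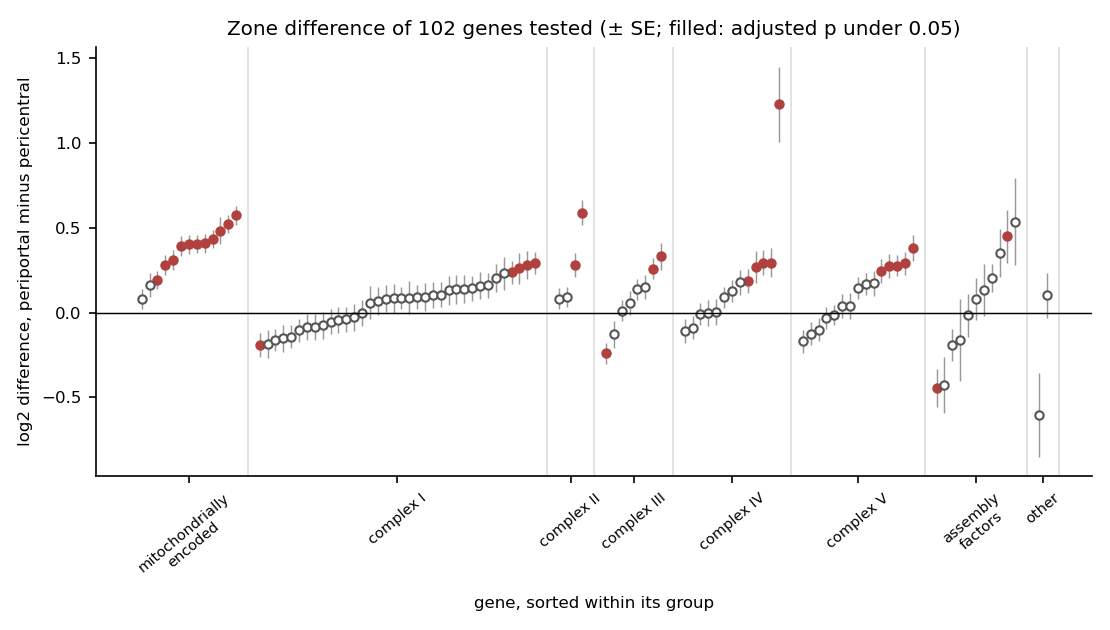
Periportal minus pericentral log2 difference with its standard error for each of the 102 tested genes, filled where the adjusted p was under 0.05. The 11 called mitochondrial genes lie at 0.19 and above, and Cox7a1 is the farthest at 1.23.

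Of the 33 calls, 27 held without any 1 library, and those of Sdhb, mt-Co2 and mt-Nd6 held in all 23 alternatives. At least 1 of the letter strings described with the promoters was present in 7 of 19 matched nuclear genes called by zone. The count was 28 of 58 for matched nuclear genes that were not called, a higher share than among the called. By string, CAAGGTCA was in 2 of the 19 and 2 of the 58, a higher share among the called. The other strings had a lower share among the called: GCGCATGCG in 1 and 9, CCGGAAG in 4 and 16, AAGATGGCG in 1 and 7. These differences were not tested.

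Divided into 8 layers of equal cell number, the mitochondrial share was higher at each step, from 15.2% ± 2.49 in the most pericentral layer to 19.8% ± 3.28 in the most periportal (SD, n = 10 libraries). The last minus the first layer was 4.60 ± 1.73 percentage points and above 0 in 10 of 10 libraries, from 1.92 in ZT12C to 7.69 in ZT18A. Its average was 6.59 points for ZT18, 5.11 for ZT0, 3.70 for ZT12 and 3.18 for ZT6. The nuclear members' share of non-mitochondrial UMIs showed no such step: the difference was 0.0534 ± 0.455 points, above 0 in 5 of 10 libraries. The log2 ratio of mitochondrial to nuclear UMIs was higher in the most periportal layer in 9 of 10 libraries, by 0.43 ± 0.27, with ZT12A at -0.08.

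**Figure D5:**
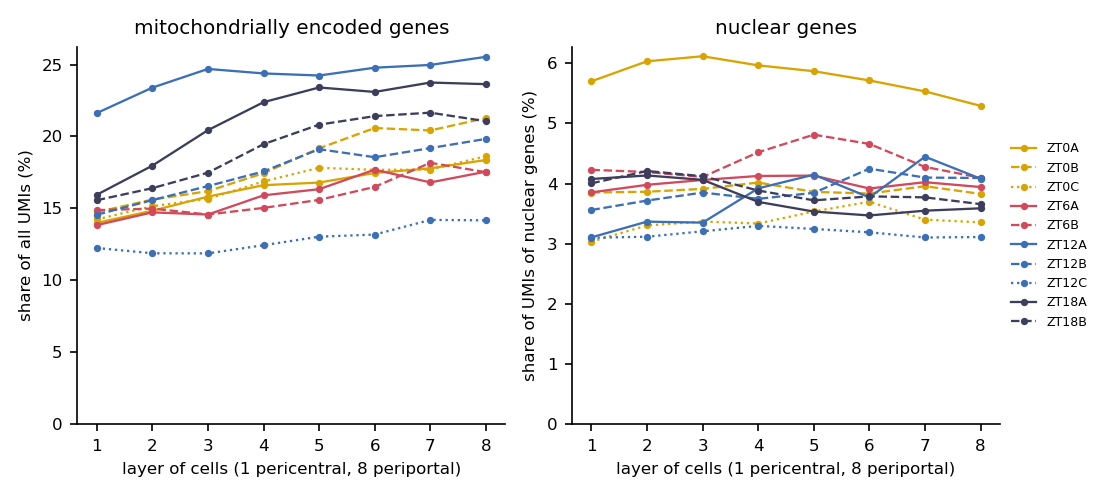
Share of UMIs (percent) by lobule layer, from 1 (pericentral) to 8 (periportal), for mitochondrial genes and for nuclear members as a share of non-mitochondrial UMIs, by library and time. The mitochondrial share goes from 15.2% to 19.8% on average, and the nuclear share is nearly level.

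Cells of each library were also divided by mitochondrial share into 3 groups of equal number. The low, middle and high group had a mean layer of 3.52, 4.60 and 5.37, and the high group lay more periportal than the low one in 10 of 10 libraries. Their nuclear members' share of non-mitochondrial UMIs was 4.17, 3.94 and 3.82%, and the high group lay above the low one in 1 of 10 libraries. Both quantities share the same cells and depth, so this is a description.

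Whether the rhythm itself differed between zones was tested in 1 model. No member was called by edgeR after Benjamini-Hochberg adjustment, against 0.0337% of all genes, with 10 of 102 at an unadjusted p under 0.05, against 6.12% of all genes, and DESeq2 called 0 as well, with 1 unadjusted. The smallest adjusted p was 0.658. Without ZT0C 1 gene was called (Cox5b), and without ZT0C and ZT12C 4 were (Cox6b1, Cox7b, Ndufa4 and Uqcrb). The median nuclear zone difference was -0.13, 0.07 and 0.29 in the ZT0 libraries, 0.09 and 0.14 at ZT6, 0.38, 0.17 and 0.03 at ZT12, and -0.22 and -0.10 at ZT18, against 0.30 to 0.50 for the mitochondrial genes. Both ZT18 libraries were below 0 and all ZT6 and ZT12 libraries above, while ZT0 spanned both.

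Genes around the chain were read from lists of neighbouring functions, to be set against the 11.9% of all genes called higher periportal and the 12.7% called lower. Of 6 electron carriers outside the rule, 1 was called by zone, Cyc1 (0.21), the cytochrome c1 of complex III, and no carrier was called higher when scaled by library size alone. Of 33 further assembly factors, 3 were higher periportal and 9 lower, among them Coa6 (-0.61) and Cox16 (-0.56), both needed for complex IV, and Sco2 (0.49), a copper chaperone of complex IV. Of 33 genes for the expression of mitochondrial DNA, 2 were higher and 3 lower, a smaller share than over all genes. None of these lists had more than 1 gene called in the rhythm test.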

How the data were processed

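The authors deposited 1 table of raw UMI counts per library, with genes in rows and cells in columns, and these counts were used as deposited. The submitters' processing notes name Cell Ranger, hg19 and mm10 without a role or version, and cell filters and the handling of reads shared by overlapping genes are not given in the sources used here. Columns carry cell numbers, so barcodes shared between libraries could not be counted. No doublets were removed. The members and lists were chosen with earlier results of these data known.

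UMIs were summed per library and tested with edgeR 4.0.16 (TMM scaling, quasi-likelihood F test, R 4.3.3) over all genes whose mean level reached 3 CPM, with p-values adjusted by Benjamini-Hochberg. The rhythm test fitted a 24 h cosine and sine to all 10 libraries, and ZT12 against ZT0 and ZT18 against ZT6 were contrasts of a fit with the 4 times. For zones, cells were ordered within each library by 8 periportal minus 8 pericentral landmarks, divided into 3 zones of equal cell number, and the summed outer zones were compared with library as a block; the landmarks were left out of the counts. DESeq2 1.42.0 was an alternative.

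Libraries of ZT0 and ZT12 with the same letter deviated together: the correlations of their deviations from group means were 0.239 to 0.473 over 3 pairs. Different letters gave -0.309 to -0.106, but deviations cancel within a group, so these values follow in part from the same-letter ones. Same-letter libraries of other groups gave -0.0350 to 0.107, where the deviations in a group of 2 libraries mirror each other. Data were simulated with 200 changed genes. The rhythm test on 8908 genes recovered 16% at a log2 size of 0.5 and 92% at 1, with 4 false calls. The zone test on 8923 genes recovered 5% at 0.25 and 46% at 0.5, with 5 false calls. More genes were called in the data, 2194 of 8907 by zone and 458 of 8908 for rhythm. The simulated recovery is therefore not the sensitivity of the tests as run. Genes named with values were all mitochondrial members, up to 5 called members per direction and test, the 2 nuclear genes with most UMIs per complex, Sdha to Sdhd, paralogues of one position, and at most 5 called genes per neighbouring list; others named for their values are marked or belong to a called count. One called member is not reported here by name.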

Additional observations from a re-analysis of the deposited data

Results flagged for a closer look

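Cox5b, a nuclear subunit of complex IV, had periportal minus pericentral differences of opposite sign at different times. The mean log2 difference was 0.14 at ZT6 and 0.85 at ZT12 but -0.11 at ZT18, with every library of those times on the same side of 0. The ZT0 libraries crossed 0, at -0.13, 0.0079 and 0.75. The difference between those times was not tested on its own, and the test of zone-dependent rhythm did not call Cox5b (edgeR adjusted p = 0.794). The nuclear members' share of non-mitochondrial UMIs, last minus first layer, likewise averaged 0.507 percentage points at ZT12 and -0.417 at ZT18, with no library of those times crossing 0, and that difference was not tested. Libraries of ZT0 (-0.409, -0.0229 and 0.321) and of ZT6 (0.0890 and -0.131) lay on both sides.

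In 2 of 39 sets of 10 library values, 1 library lay far from the rest. Sdhd had a zone difference of 0.80 in ZT12A, and mt-Nd2 had one of -0.32 in ZT12C. Chance alone marks about 1 in 20 such sets.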

How the results depend on the processing

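The number of rhythmic members, 2, became 1 with library size alone, with no low-count filter, with a mean of at least 20 CPM, with cells of at least 3000 UMIs and without the top 5% of cells, 0 without both ZT18 libraries, and 0 to 2 when 1 library was left out. Without both ZT18 libraries the mt-Nd4l amplitude was 0.72 (adjusted p = 0.276), against 0.73. The 1 member called for ZT12 against ZT0 became 0 with library size alone, DESeq2, no filter, 20 CPM, 3000 UMIs, without the top 5% of cells, without ZT0A and ZT12A and without ZT0C and ZT12C, and 0 to 1 when 1 library was left out. For ZT18 against ZT6, 1 became 2 with DESeq2, with no filter, without ZT0A and ZT12A and without ZT0C and ZT12C, and 0 to 2 when 1 library was left out.

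With the letter as a replicate block, the count for ZT18 against ZT6 became 4: mt-Nd4l, Sdhd (1.06, adjusted p = 0.00685), Ndufaf4 (0.91, adjusted p = 0.0344) and mt-Nd2 (1.02, adjusted p = 0.0387). ZT6 and ZT18 share only a letter. The block gave 3 rhythmic members, 1 for ZT12 against ZT0 and 0 for zone-dependent rhythm.

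The 33 zone calls became 3 with no library block and 30 to 36 when 1 library was left out. The mt-Nd2 zone difference turned to -0.018 with library size alone. Zone-dependent rhythm went from 0 members to 1 without ZT0C, hence 0 to 1 over single libraries left out, and to 4 without ZT0C and ZT12C. The nuclear share of non-mitochondrial UMIs, last minus first layer, went from 0.0534 to -0.111 with cells of at least 3000 UMIs and to -0.00940 with cells thinned to 1000 UMIs, and the mitochondrial difference ZT12 minus ZT0 went from 1.18 percentage points to -1.82 without ZT12A and to 3.88 without ZT12C. The causes were not tested. Settings that leave out a pair of libraries were chosen after seeing the data. Low-count genes such as Ndufaf7 and Cox7a1 are limited by depth.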

Other observations

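Of 14 regulators of mitochondrial biogenesis, 3 were called higher at ZT12 than at ZT0 (edgeR, Benjamini-Hochberg), where 3.44% of all genes were called in either direction: Foxo1, a fasting transcription factor, by 1.28, Ppargc1a, a coactivator of oxidative genes, by 1.22, and Esrra, an oestrogen-related receptor, by 0.93 on the log2 scale. The same 3 were called rhythmic (5.14% of all genes), with Ppargc1a peaking at ZT10.1 and Esrra at ZT14.3. By zone, 3 were higher periportal, Ppargc1a by 1.73 ± 0.16, Esrra by 1.06 ± 0.12 and Ppargc1b by 0.76, and Ppara was lower (-0.44), so 4 of 14 were called, near the 24.6% of all genes.

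Over all genes, 11.9% were called higher periportal and 12.7% lower. A list of 17 genes held enzymes of the tricarboxylic acid cycle and also Dlat and Pdhb of pyruvate dehydrogenase, which feeds it. Of these genes, 6 were higher periportal, Fh1 (0.44) and Pdhb (0.25) among them, and 5 lower, including Dlat (-1.04) and Cs (-0.54). Scaled by library size alone, these counts were 3 and 5. Of 12 ADP and phosphate carriers and coupling genes, 3 were higher, with Vdac2 at 0.52, and Ucp2 was lower (-1.72). Of 76 mitochondrial ribosomal protein genes, 2 were higher periportal and 13 lower, with a median difference of -0.05, and with library size alone 0 were higher and 21 lower; the 15 called are a smaller share than the 24.6% of all genes.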
